A study of Mus musculus with 6 samples.

Results

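Anti-PD-L1 was added to 2FF in a mouse model of ovarian cancer, and the immune cells of a mouse given both were compared with those of a mouse given 2FF alone by single-cell RNA sequencing. Cells with at least 250 genes and at most 5% mitochondrial UMIs (unique molecular identifiers, each standing for 1 captured RNA molecule) were kept and sorted in silico into T, NK, B, neutrophil, monocyte, macrophage and dendritic cells by lists of 8 marker genes. The 2 libraries gave 14764 such cells, 7964 from the 2FF library and 6800 from the combination library, of 44385 cells of these 7 classes in the 6 libraries of the series. Each group is 1 mouse, so no test between the treatments can be made, mouse and treatment cannot be told apart, and every 95% interval below covers counting error only.

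The tumors were grown from KPCA, an ovarian cancer line of the mouse that keeps homologous recombination intact, injected into the ovarian bursa of female C57BL/6 mice aged 6 to 8 weeks. Before injection, the tumor cells of both groups had spent 3 days in 300 µM 2FF (a fluorinated fucose analog, 2-fluoro-L-fucose in the study and 2F-Peracetyl-Fucose in the labels), and both mice were then gavaged with 2FF at intervals of 2 days. The combination mouse also received intraperitoneal anti-PD-L1 antibody at 5 mg/kg, 2 doses a week over 3 weeks, from day 9 on. Control animals of the study received solvent and control rat IgG, and whether the 2FF mouse did is not given in the sources used here. Both were sacrificed on day 30.

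PD-L1, encoded by Cd274, is a ligand that tumor and myeloid cells display to the receptor PD-1 (Pdcd1) of T cells, where it restrains activation and killing, and antibodies that block it are used to release this restraint. Fucosylation is the attachment of fucose to glycans in the Golgi from the donor GDP-fucose, and 2FF is taken up by cells and blocks this step, lowering fucose on surface glycoproteins and on selectin ligands. The treatments act on protein and glycan, so neither needs to alter the mRNA of its target.

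The 2FF library held 72009925 UMIs in 10412 cells, of which 9222 were kept, and the combination library 68394410 UMIs in 8598 cells, of which 7806 were kept. The median depth of the cells kept was lower in 2FF, at 6505.5 UMIs, than in the combination, at 7732. Cells with 4 or more markers of another lineage, 358 (3.88%) and 198 (2.54%), were left out as likely doublets, and 848 (9.20%) and 787 (10.1%) fitted no class. The libraries shared 22 cell barcodes, 0.211% of those of 2FF. The labels give lymph node as the tissue where the study describes tumors, and the series text speaks of young and aged mice. No cell of either library passed the gate for lymph node stroma, and Ccl21a and Ccl19, the defining chemokines of that stroma, were at 0 in all 7 classes of both. Fibroblasts numbered 1 in 2FF and 8 in the combination, and endothelial cells 0 in both. Stroma of any kind was thus scarce, so its absence cannot decide which tissue was used. Keratin-positive cells, the class a tumor cell would fall in, numbered 13 and 5.

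The combination library held relatively fewer T cells and more monocytes. T cells made up 36.3% of the 7 classes in 2FF (95% interval 35.2 to 37.3) and 26.8% in the combination (25.8 to 27.9), a difference of -9.42 percentage points (-10.9 to -7.92). Monocytes, the blood-derived precursors of tumor macrophages, made up 25.3% and 36.8%, a difference of 11.5 points (9.98 to 13). NK cells, which kill without prior priming, were 2.02% and 3.18%, 1.57 times the share in 2FF. Neutrophils stood at 6.54% and 5.47% and dendritic cells, which present antigen to T cells, at 5.06% and 4.22%. The intervals of the NK, neutrophil and dendritic differences left out 0, whereas those of B cells (3.60% and 3.03%) and macrophages (21.2% and 20.5%) held it.

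**Figure D1:**
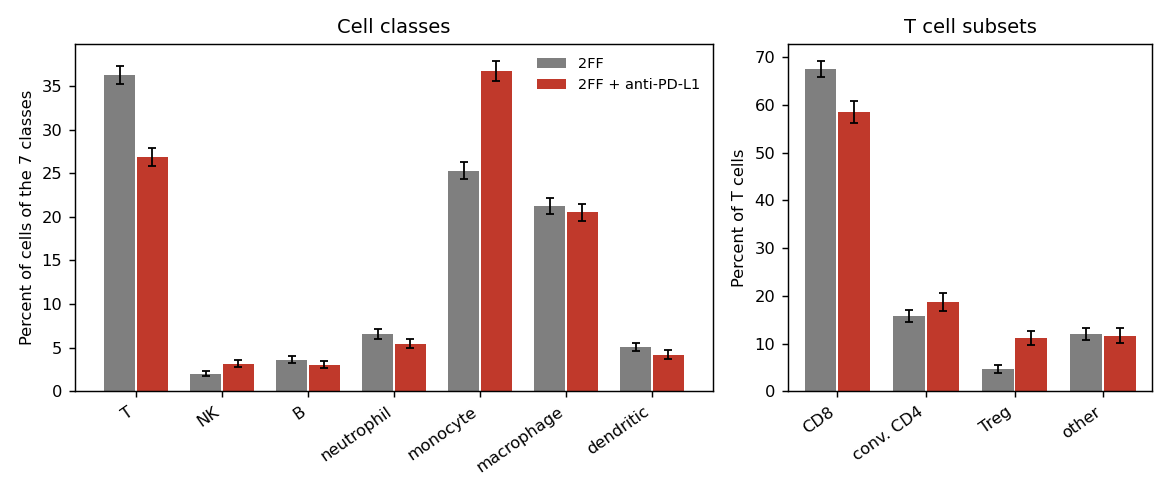
Share of each class among the cells of the 7 classes (left, percent) and of each subset among T cells (right, percent) in the 2FF library (grey) and the combination library (red), with exact 95% intervals as bars. T cells stand at 36.3% and 26.8%, monocytes at 25.3% and 36.8%, and Treg cells at 4.64% and 11.1% of T cells.

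Expressed as ratios of cells, there were 1.44 T cells per monocyte in 2FF and 0.730 in the combination, and 1.19 and 1.79 monocytes per macrophage. T cells per NK cell were 17.9 and 8.45. When cells were thinned to 2000 UMIs each, leaving out 429 of 9222 cells of 2FF and 490 of 7806 of the combination that had fewer, T cells were 38.3% and 28.9% and monocytes 23.9% and 36.1%. Macrophages (93 of 1692 and 221 of 1395) and neutrophils (105 of 521 and 41 of 372) lost the most cells to this limit. A share cannot tell fewer T cells from more monocytes, since the cells were not counted per gram of tumor.

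Within the T cells the balance between killer and regulatory cells also differed. CD8 T cells (a Cd8a or Cd8b1 UMI and no Cd4 UMI), the cytotoxic arm, were 1953 of 2888 T cells in 2FF and 1069 of 1825 in the combination, 67.6% and 58.6%, a difference of -9.05 points (-11.9 to -6.19). Regulatory T (Treg) cells restrain other T cells. They were gated by a UMI of their transcription factor Foxp3 with no Cd8a or Cd8b1 UMI. Treg cells were 134 and 203 cells, 4.64% and 11.1% of T cells, a difference of 6.48 points (4.85 to 8.18) and a ratio of 2.40. Conventional CD4 T cells were 15.8% and 18.7%. There were thus 14.6 CD8 T cells per Treg cell in 2FF and 5.27 in the combination. In the other libraries of the series this ratio ran from 1.39 (control) to 7.89 (anti-PD-L1 added to 2DG, another inhibitor). The 2FF library thus had the highest ratio of the 6, and the combination lay within the range of the others.

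Taken over the cells of all 7 classes, Treg cells were 1.68% in 2FF and 2.99% in the combination. T cells of the combination were sequenced more deeply (median 7278 UMIs against 5544), and the difference was smaller at equal depth. With 2000 UMIs per cell, Treg cells were 3.30% and 6.55% of T cells, 1.99 times the share in 2FF. Free RNA in the droplets gave little Foxp3, since 0 of 287 and 0 of 206 B cells held a Foxp3 UMI, which allows shares of up to 1.05% and 1.46%, and 0.249% and 0.200% of monocytes did. Against this, 163 and 220 T cells held one, 5.64% and 12.1%, which includes cells that the Treg gate left out for a Cd8a or Cd8b1 UMI.

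For gene expression, UMIs were summed over the cells of a class and divided by the class total, as CPM, the UMIs per 1e6 UMIs of the class. A gene with at least 50 UMIs in both libraries together was counted as higher or lower in the combination where CPM + 5 differed by 1.5-fold or more, a log2 ratio of at least 0.58 in size. These are counts by size, not by a test.

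Few genes of the T cells passed this threshold, 71 of 11826 genes (0.6%) higher and 77 (0.651%) lower in the combination. Il2ra, the alpha chain of the interleukin-2 receptor, was at 146 CPM in 2FF (140 to 151) and 299 in the combination (290 to 308), a log2 ratio of 1.01. Klrg1, a receptor of effector and regulatory T cells, was at 20.5 and 47.4 CPM, Cpm, a membrane carboxypeptidase, at 43.1 and 87.8, Frmd5 at 34.96 and 73.6 and Dthd1 at 12.1 and 30.7 CPM. On the other side stood Gzmd, a granzyme with close paralogs, at 26.9 and 1.55 CPM, the peptide transporter Slc15a2 at 27.1 and 7.50, and Calca, which encodes calcitonin and CGRP, at 15.3 and 5.54. The Gzmd UMIs came from 27 cells of 2FF and 5 of the combination. In T cells of the other libraries of the series, Il2ra ran from 232 to 316 CPM and Klrg1 from 31.8 to 55.6. Cpm ran from 67.4 to 195 CPM there and Frmd5 from 64.8 to 420. For these genes the 2FF library was thus the lowest of the 6. Dthd1 ran from 5.90 to 13.7 CPM in the other libraries, and the combination was the highest of the 6.

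The differences in Il2ra and Klrg1 were smaller within a subset than in all T cells. In Treg cells, Il2ra stood at 1291 CPM in 2FF and 1356 in the combination, and Klrg1 at 241 and 283. In conventional CD4 T cells both still passed the threshold, Il2ra at 218 and 343 CPM and Klrg1 at 9.72 and 20.1, whereas in CD8 T cells they were at 63.8 and 86.3 and at 10.6 and 13.7. Ikzf2, which encodes Helios, a transcription factor abundant in Treg cells, was likewise at 657 and 1063 CPM over all T cells but at 4606 and 5149 in Treg cells and 355 and 386 in CD8 T cells. Cpm differed inside the subsets as well, at 59.8 and 143 CPM in conventional CD4 and 11.5 and 30.3 in CD8 T cells, but was at 310 and 291 in Treg cells.

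Cytotoxic effector genes of the T cells lay mostly below 0 in log2 ratio. Of the 19 members tested, 5 were lower (Gzmf, Gzma, Prf1, Nkg7 and Ccl5) and 2 higher (Gzmc and Klrg1), 17 of 19 log2 ratios were below 0, and the median was -0.35 against -0.02 for all genes. Gzma, which encodes a granule protease, was at 408 CPM in 2FF (398 to 417) and 191 in the combination (184 to 198). Gzmf stood at 41.8 and 3.11 CPM but came from 27 and 6 cells, and Gzmc ran the other way, at 36 and 113 CPM, with 400 of its 1679 UMIs in 1 cell of the combination. Gzmc, Gzmd and Gzmf are close paralogs, and the part of this likeness in their counts was not tested.

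Among CD8 T cells alone, 64 of 10892 genes (0.588%) were higher and 89 (0.817%) lower, and 4 of the 19 cytotoxic effectors were lower and none was higher, with a median of -0.25. Prf1, the pore-forming perforin, was at 716 CPM in 2FF (701 to 730) and 416 in the combination (403 to 429). Nkg7, a granule membrane protein, was at 2616 and 1688 CPM and Gzma at 519 and 233. The inhibitory receptor Lag3, which marks chronically stimulated T cells, was the 1 called member of 16 inhibitory receptors and ligands, lower at 396 and 244 CPM. Itgae, the CD103 integrin chain that holds T cells in epithelia, was at 64.9 and 26.7 CPM.

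Of 12 genes of stem-like T cells, 2 were higher among CD8 T cells and none lower, with 11 of 12 log2 ratios above 0 and a median of 0.31. Slamf6, a receptor of progenitor-like exhausted T cells, was at 10.3 CPM in 2FF (8.60 to 12.2) and 23.5 in the combination (20.5 to 26.8), and Lef1, a partner of Tcf1, at 80.8 and 126 CPM. None of 18 cell cycle genes was called in T cells or in CD8 T cells, with medians of 0.17 and 0.18. In conventional CD4 T cells, where 151 of 8314 genes (1.82%) were higher and 235 (2.83%) lower, 3 of 17 cell cycle genes were higher and none lower, with a median of 0.30. Top2a, the topoisomerase of dividing cells, was at 99.1 CPM in 2FF (87.5 to 112) and 186 in the combination (170 to 203), and the proliferation marker Mki67 at 104 and 170.

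**Figure D2:**
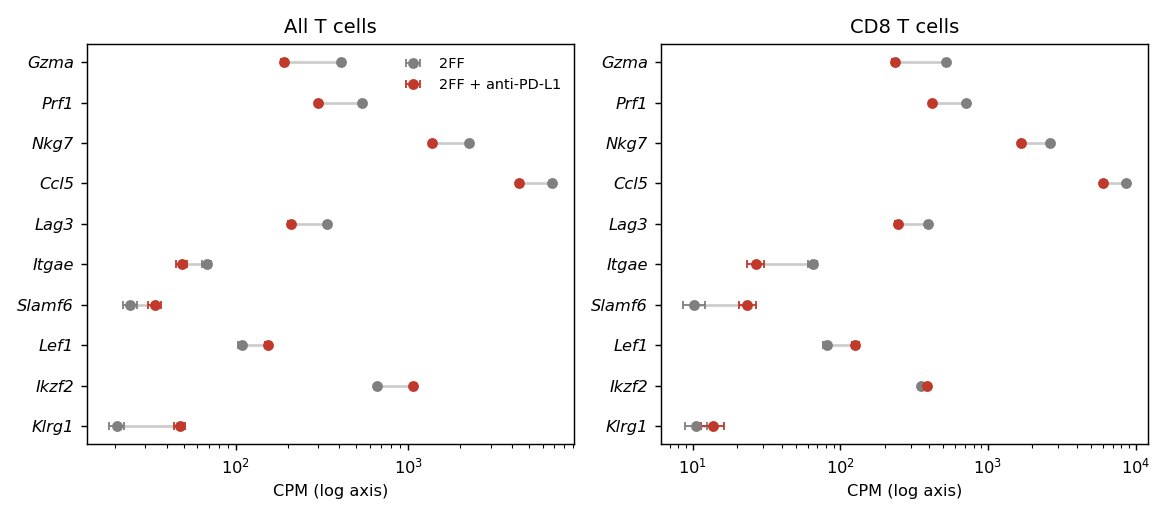
Level of 10 genes in all T cells (left) and CD8 T cells (right), in CPM on a log axis, in the 2FF library (grey) and the combination library (red), with exact 95% Poisson intervals. Gzma, Prf1, Nkg7, Ccl5 and Lag3 are lower in the combination in both panels, whereas Ikzf2 and Klrg1 lie closer together in CD8 T cells than in all T cells.

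The genes of the targets did not pass the threshold. Cd274, the gene of PD-L1, was at 833 CPM in 2FF and 834 in the combination in monocytes, 666 and 608 in macrophages, 888 and 1078 in dendritic cells and 1939 and 2210 in neutrophils, with no class past the threshold. Its level in lymphocytes was 116 and 120 CPM in T cells, 119 and 94.2 in NK cells and 461 and 436 in B cells. Pdcd1, the gene of PD-1, was at 229 and 194 CPM in T cells, 230 and 180 in CD8 T cells and 285 and 310 in conventional CD4 T cells, and at 5.01 CPM or less in each of the other 6 classes. Of 18 genes of fucose supply, transfer and removal, 3 to 12 could be tested per class or T cell subset, and the only one called in the 7 classes was Fuca1, the lysosomal fucosidase, at 86.8 and 46.3 CPM in neutrophils. It was 1 of 6 tested in that class, where 13.6% of all genes were lower.

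Monocytes of the combination had higher levels of some chemokines, inflammatory cytokines and interferon-stimulated genes. Over all genes, 180 of 11265 (1.6%) were higher and 124 (1.1%) lower. Among genes that passed the naming rule given with the processing, Mmp12 and Inhba had the largest ratios. Mmp12, the macrophage elastase, was at 16.9 CPM in 2FF (14.8 to 19.2) and 93.7 in the combination (89.6 to 98.0), and Inhba, an activin subunit, at 112 and 332. Il6, a cytokine of acute inflammation, stood at 17.2 and 58.2 CPM, the collagenase gene Mmp13 at 4.66 and 22.0, and Slfn4, an interferon-inducible gene of myeloid cells, at 161 and 404. Slfn4 was higher in all 5 classes in which it could be tested and Inhba in 5 of 6, so neither difference was particular to monocytes. The lowest by the same rule included Tmem176a, a membrane protein, at 162 and 59.3 CPM, and Oprm1, the mu opioid receptor, at 43.2 and 17.1. The share of monocytes with a UMI differed too. Mmp12 was found in 57 of 2012 monocytes of 2FF and 181 of 2499 of the combination, Il6 in 120 and 344.

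Of 17 chemokines tested in monocytes, 7 were higher and 1 lower, with a median log2 ratio of 0.55 against -0.05 for all genes. The neutrophil-attracting Cxcl3 was at 43.5 and 136 CPM, Cxcl1 at 14.2 and 38.7 and Cxcl2 at 1463 and 2842, and Ccl12, which draws monocytes, at 51.7 and 105. Of 13 inflammatory cytokine genes, 6 were higher, among them the prostaglandin synthase Ptgs2 (157 and 298 CPM), the interleukin-6 family cytokine Osm (340 and 616) and Il1a (95.4 and 162), and all 13 log2 ratios were above 0. Of 18 suppressor and tumor macrophage genes, 6 were higher. Spp1, the matrix protein osteopontin, was at 496 and 1031 CPM, and Il1rn, the interleukin-1 receptor antagonist, at 178 and 314.

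Of 13 MHC class II genes, which present antigen to CD4 T cells, 6 were lower and none higher in monocytes of the combination, with a median of -0.50. H2-Aa was at 1795 CPM in 2FF and 986 in the combination, H2-Ab1 at 1945 and 1103, H2-Eb1 at 1250 and 723 and the invariant chain Cd74 at 4857 and 3078. In macrophages 1 of 13 members was lower (H2-Aa, 4238 and 2824 CPM) with a median of -0.41, and in dendritic cells none was called, with a median of -0.19. The medians lay below 0 in the other classes as well. In T cells the median was -0.45, with 3 of 11 lower, where 0.651% of all genes were. In B cells it was -0.36, with 2 of 13 lower, where 5.55% of all genes were. The part of free RNA in the T cell values was not tested. H2-Aa was lower in 5 of the 7 classes, so its difference was not particular to monocytes. Library preparation, mouse and treatment cannot be told apart for it. The neutrophil marker list in monocytes summed to 424 and 626 CPM and the macrophage list to 1627 and 1641, with none of the 8 markers of either list at 0 in either library. Of 17 granule genes 7 were also higher in monocytes, and 1 cell held 71.8% of the Camp UMIs, 75.9% of those of Ngp and 96.0% of those of Mpo in the combination. S100a8 was more widespread, at 35.5 and 152 CPM in 92 and 169 monocytes, with 44.5% of its UMIs in 1 cell of the combination.

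Type I interferon-stimulated genes are those that cells switch on after sensing interferon alpha or beta. In monocytes 9 of 22 members were higher and none lower, with a median of 0.43. Rsad2, which encodes the antiviral enzyme viperin, was at 241 CPM in 2FF (233 to 250) and 546 in the combination (536 to 556), and Ifit1, which binds viral RNA, at 70.9 and 158. Ifi44 stood at 12.9 and 28.5 and Ifi205 at 122 and 231. In dendritic cells, with 235 of 9078 genes (2.59%) higher and 272 (3%) lower over all, 9 of 21 members were higher, with Rsad2 at 28.1 and 98.9 CPM, Ifi44 at 8.52 and 33.3 and Ifit1 at 16.1 and 50.4.

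In macrophages, with 157 of 11425 genes (1.37%) higher and 72 (0.63%) lower over all, 7 of 21 interferon-stimulated genes were higher, among them Ifit1 at 28.4 and 61.2 CPM and Ifit3 at 8.88 and 20.04. This count was 2 of 21 when cells with 3 or more markers of another class were left out, a setting chosen after the data had been seen, whereas it was 8 of 22 in monocytes and 14 of 21 in dendritic cells. The share of all genes that were higher in that setting is not given here, so these counts have no background. That setting left out 1002 of the 1692 macrophages of 2FF and 807 of the 1395 of the combination. Of the monocytes it left out 713 of 2012 and 948 of 2499. With all cells kept, 2 of 21 members were higher in T cells, where 0.6% of all genes were, and 2 of 10 in NK cells, where 3.4% were. In B cells 1 of 6 was lower, where 5.55% of all genes were. In neutrophils 2 of 21 were higher and 1 lower, where 6.17% and 13.6% of all genes were. The 5 genes Ifit1, Ifit2, Ifit3, Rsad2 and Ifi44 were higher in all 3 of monocytes, macrophages and dendritic cells.

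Sequence near the starts of these genes is shown for a motif of this pathway. The interferon-stimulated response element, found in the promoters of many such genes, has the core GAAANNGAA. Searched on both strands from 250 bases before to 50 bases after the gene start (RefSeq, GRCm38.p6), the core stood in the promoters of 13 of the 18 list members that had a promoter entry (72.2%) and of 9.76% of 27025 genes, and 4 of the 5 genes named above carried it. Of 17 members of the interferon-gamma list with a promoter entry, 11 held it (64.7%). For the list of interferon-stimulated genes the motif was counted after the data had been seen. The windows of 30 bases below show where the core lies in 3 of the genes that differed in all 3 classes, read along the gene, with the matched bases in capitals. The matches are of the core on the opposite strand, and in Ifit1 2 matches overlap. They are listed with their position, and a match describes the sequence only.
Ifit1, chr19:34640773-34640802, + strand, 116 to 87 bases before the start: tgcaggcTTCAGTTTCACTTTCcagtctca
Ifit3, chr19:34583364-34583393, + strand, 165 to 136 bases before the start: agtggtaagtTTCACTTTCctcttctggtt
Rsad2, chr12:26456552-26456581, - strand, 129 to 100 bases before the start: tggtccaactTTCATTTTCagaaaacagaa

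**Figure D3:**
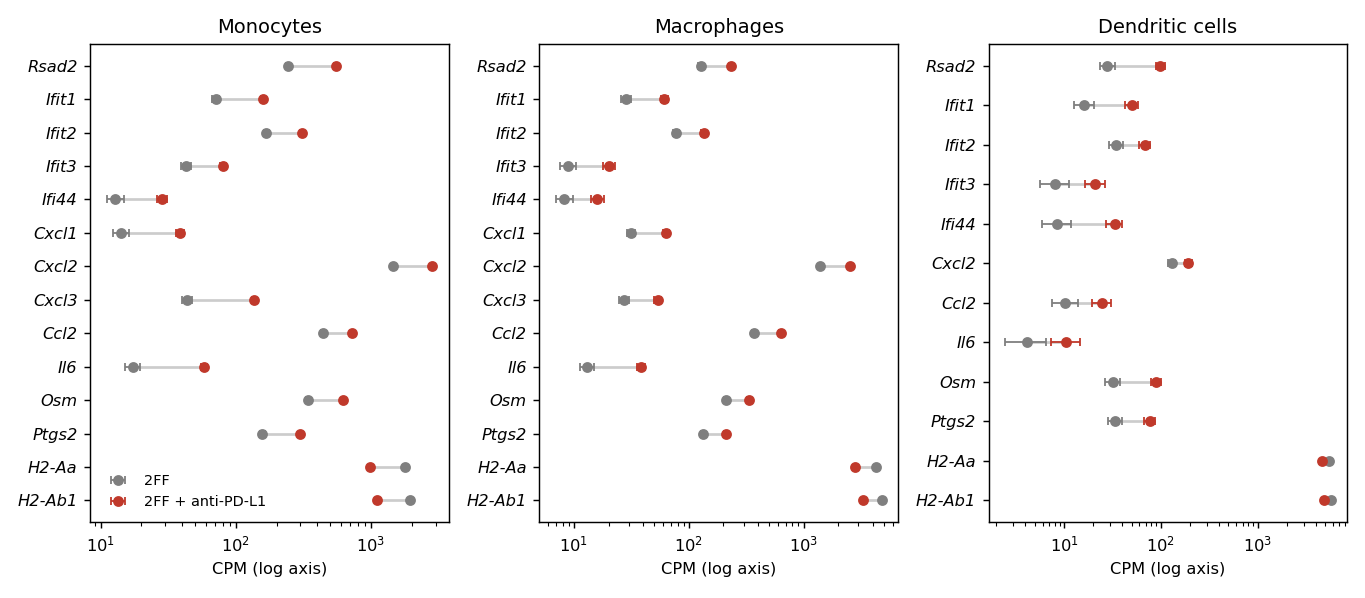
Level of interferon-stimulated genes, chemokines, cytokines and 2 MHC class II genes in monocytes (14 genes), macrophages (14) and dendritic cells (12, without Cxcl1 and Cxcl3, which had under 1 CPM there), in CPM on a log axis, in the 2FF library (grey) and the combination library (red), with exact 95% Poisson intervals. Rsad2, Ifit1, Ifit2, Ifit3, Ifi44, Il6 and Osm are higher in the combination in each panel, and H2-Aa is lower in monocytes (1795 and 986 CPM).

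Macrophages, apart from interferon genes, showed chemokines on both sides. Of 21 members, 5 were higher, including Cxcl1 (31.5 and 63.5 CPM), Cxcl3 (27.4 and 53.6) and Cxcl2 (1402 and 2511), and 5 lower, led by Ccl24, which draws eosinophils, at 879 and 451 CPM. Of 12 inflammatory cytokine genes 4 were higher, or 1 with each cell weighing the same, with Il6 at 13.04 and 38.3 CPM and Osm at 209 and 333. Pdcd1lg2, the gene of PD-L2, the other ligand of PD-1, was at 243 CPM in 2FF and 132 in the combination, and the homing receptor gene Cd44 at 782 and 1378.

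The highest ratios among the macrophage genes that passed the naming rule came from few cells. Alox15, a lipoxygenase, was at 5.50 CPM in 2FF and 45.8 in the combination, found in 17 of 1692 and 34 of 1395 cells. Prg4, which encodes lubricin, was at 9.30 and 54.2 CPM and Cd5l, a secreted scavenger protein, at 3.93 and 22.4, and all of these are known from resident macrophages of body cavities. In the combination, 10 cells held 72.4% of the Alox15 UMIs, 71.0% of those of Prg4 and 66.6% of those of Cd5l. Ltbp1, which binds latent TGF-beta, was at 1.09 and 16.5 CPM, and Zbtb16, a transcription factor of innate-like lymphocytes, at 7.25 and 32.6. Rnase2a (15.2 and 5.36 CPM) and the phosphodiesterase Pde4c (27.8 and 11.8) were among the lowest by this rule.

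Of 23 interferon-gamma response genes 6 were higher and none lower in dendritic cells, with a median of 0.26. Iigp1, an interferon-inducible GTPase, was at 114 CPM in 2FF (104 to 124) and 222 in the combination (206 to 239), and Cxcl9 and Cxcl10, which attract T cells through Cxcr3, at 313 and 537 and at 142 and 228. Nos2 was higher as well, but 1 cell held 98 of its 104 UMIs in 2FF and 1 cell 175 of 215 in the combination. Of 15 chemokines 7 were higher, among them Ccl2 (10.4 and 24.6 CPM) and Ccl6 (45.3 and 82.5), while 156 of the 180 Ccl8 UMIs of the combination lay in 1 cell. Apart from lists, Ddit4, a stress-induced inhibitor of mTOR, was at 23.0 and 66.6 CPM, the interferon-inducible Ifi27l2a at 139 and 361, the adhesion gene Chl1 at 28.1 and 4.50 and the lipid phosphatase Plpp1 at 30.4 and 9.29. Cadm1 (214 and 89.1 CPM) and Cox6a2 (12.9 and 40.8) also differed but served to gate the class. The shares of type 1, type 2, mature and plasmacytoid dendritic cells differed within counting error. The summed level of the 8 type 1 markers was nevertheless 1862 and 1473 CPM, with 3 lower, that of the type 2 markers 1565 and 1904, with 2 higher, that of the mature markers 1966 and 1679, with 1 lower, and that of the plasmacytoid markers 923 and 1262, with 3 higher. No marker was at 0, and their part in the differences of the dendritic cells was not tested.

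Neutrophils had the largest share of genes past the threshold of the 7 classes, with 356 of 5774 (6.17%) higher and 784 (13.6%) lower, and the median of all genes was shifted to -0.14. Relative to that median the split turned to 580 higher and 432 lower. Neutrophils were also the shallowest class, with medians of 2554 and 3167 UMIs. Of the genes that passed the naming rule, Tnfaip6, a hyaluronan-binding protein of inflammation, had the highest ratio. It was at 27.3 CPM in 2FF (20.2 to 36.1) and 130 in the combination (112 to 148). The receptor gene Calcrl (11.1 and 50.7), the integrin gene Itgb2l (12.8 and 53.8) and Wfdc21 (202 and 667) followed. Among the lowest by that rule were Il21r, the interleukin-21 receptor, at 82.9 and 25.7 CPM, Scimp, an adaptor of antigen-presenting cells, at 151 and 55.1, and Flt1, a VEGF receptor, at 26.2 and 5.01.

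Granule and maturation genes of neutrophils were mostly higher, 14 of 18, and 3 were lower. Without Mmp9, Retnlg and S100a8, which gated the class, 12 of 15 were higher and 3 lower. S100a9, a subunit of calprotectin, was at 16134 CPM in 2FF and 27077 in the combination, and the secondary granule genes Camp and Ltf at 1260 and 3267 and at 708 and 1717, these 3 being named after their values were seen. A few cells carried much of this: 10 of the 372 neutrophils of the combination held 86.9% of the Camp UMIs, 79.4% of those of Ltf and 41.2% of those of S100a9. The 3 lower members, Mpo, Elane and Prtn3, are primary granule genes of neutrophil precursors, and 1 cell of 2FF held 99.3%, 96.9% and 88.6% of their UMIs. With each cell weighing the same, 6 of 18 members were higher.

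Several antigen presentation and interferon-gamma response genes were lower in neutrophils of the combination. Of 15 MHC class I presentation genes 7 were lower and none higher, with a median of -0.47. Psmb8, an immunoproteasome subunit, was at 488 CPM in 2FF (456 to 521) and 218 in the combination (195 to 242), and Psme2, Psmb10 and Psme1 at 318 and 150, 146 and 70.7 and 254 and 136. Of 23 interferon-gamma response genes 10 were lower, with Iigp1 at 44.0 and 16.3 CPM and Cxcl9 at 219 and 77.6, although 162 of the 393 Cxcl9 UMIs of 2FF lay in 1 cell. All 10 MHC class II genes tested had log2 ratios below 0 and 8 were lower, such as H2-Ab1 at 525 and 223 CPM.

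Marker genes of other cells also differed in the neutrophils. The 8 macrophage markers summed to 489 and 385 CPM, with none at 0 and 2 of 7 tested lower, the mature dendritic markers to 39.0 and 10.6 CPM, with 2 and 3 of 8 at 0, and the T cell markers to 82.9 and 37.5, with none at 0. Their part in the lower presentation genes was not tested. Without cells that held 3 or more markers of another class, 8 of 15 class I genes and 6 of 7 class II genes were lower, against 4 of 18 interferon-gamma genes. The share of all neutrophil genes that were lower in that setting is not given here, so these counts have no background. Cell cycle genes (5 of 8 higher, such as Mki67 at 28.4 and 93.2 CPM) rested on few cells, since 10 cells held 92.6% of the Mki67 UMIs of the combination, and none was higher without those cells of mixed markers.

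**Figure D4:**
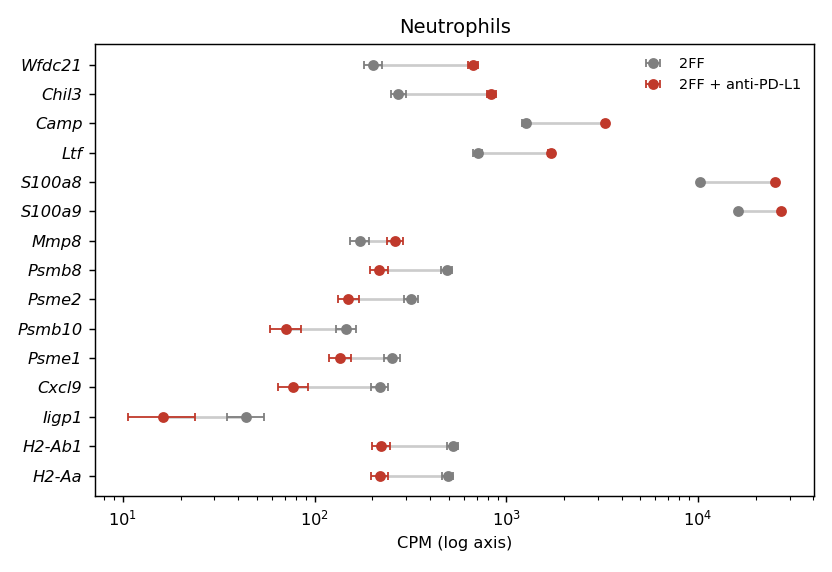
Level of granule genes (top 7 rows) and of presentation and interferon-gamma genes (bottom 8 rows) in neutrophils, in CPM on a log axis, in the 2FF library (grey) and the combination library (red), with exact 95% Poisson intervals. The granule genes drawn lie higher in the combination (S100a9 at 16134 and 27077 CPM) and the others lower (Psmb8 at 488 and 218 CPM). Mpo, Elane and Prtn3, granule genes that were lower, are not drawn, and S100a8 also served to gate the class.

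NK cells numbered 161 and 216, so their values are less precise, and 197 of 5802 genes (3.4%) were higher and 345 (5.95%) lower. None of 16 cytotoxic effectors was called, with a median of 0.04. Cx3cr1, a chemokine receptor of mature NK cells, was at 23.7 CPM in 2FF (15.0 to 35.6) and 59.0 in the combination (47.1 to 73.1). Hspa1b, a heat shock gene with a near-identical copy, was at 129 and 27.4 CPM, and Mbd3 and Ppat at 59.8 and 16.9 and at 38.1 and 11.95. Of 12 cell cycle genes 6 were lower, including Mki67 at 187 and 85.8 CPM and Stmn1 at 135 and 71.0, in 21 and 28 and in 18 and 19 cells, and of 13 hypoxia and glycolysis genes 6 were lower, including Tpi1 at 147 and 80.8 CPM. Without cells that held 3 or more markers of another class, 2 of 8 cell cycle and 1 of 11 glycolysis genes were lower, and with each cell weighing the same 1 of 13 glycolysis genes was. Shares over all NK cell genes in these settings are not given here. MHC class II genes were lower in 6 of 7 cases, but 1 NK cell of 2FF held 90 of the 199 Cd74 UMIs.

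B cells numbered 287 and 206, and 158 of 6272 genes (2.52%) were higher and 348 (5.55%) lower. Of 15 activation genes 3 were higher and none lower. Nfkbid, a regulator of NF-kappaB, was at 96.5 CPM in 2FF (81.7 to 113) and 201 in the combination (178 to 226), the early response gene Egr1 at 255 and 521 and Myc at 77.8 and 134. Il5ra, the interleukin-5 receptor, was at 66.9 and 145 CPM, and Fkbp5, a glucocorticoid-inducible chaperone, at 78.5 and 184. Hspa1a, a heat shock gene with a near-identical copy, was at 98.4 and 22.4 CPM and S1pr4, a receptor for sphingosine 1-phosphate, at 42.5 and 13.7. Of 15 MHC class I genes 3 were lower, among them Psmb8 at 311 and 185 CPM.

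Some genes differed in every class. Whether the libraries were prepared together is not given in the sources used here, so for such genes library preparation, mouse and treatment cannot be told apart. Of 4225 genes tested in all 7 classes, 1 was higher in all 7 and 3 were lower in all 7. The gene that was higher was mt-Nd3, a mitochondrial subunit of complex I, at 92.9 CPM in 2FF and 256 in the combination in T cells, 89.3 and 199 in monocytes and 79.0 and 123 in neutrophils. Those that were lower included the histone gene Hist1h2ap, at 219 and 131 CPM in T cells and 226 and 44.3 in NK cells, and Igkc, the kappa light chain of antibodies.

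Slc15a2 was lower in all 6 classes in which it could be tested, at 78.5 and 11.5 CPM in B cells and 43.2 and 9.54 in macrophages. Gstp1, a glutathione transferase with a close paralog, was lower in all 5 classes in which it could be tested, such as monocytes (35.9 and 10.7 CPM). Fkbp5 was higher in all classes but T cells, with 53.3 and 147 CPM in macrophages. Igkc was at 6499 CPM in B cells of 2FF and 2475 in those of the combination, and Igha, the heavy chain of IgA, at 464 and 14.4. Plasma cells, which secrete antibody, numbered 33 in 2FF and 5 in the combination, and Igkc was also lower in T cells (54.6 and 22.0 CPM) and neutrophils (115 and 21.9), which do not make it. The part of plasma cells in the Igkc and Igha differences was not tested.

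**Figure D5:**
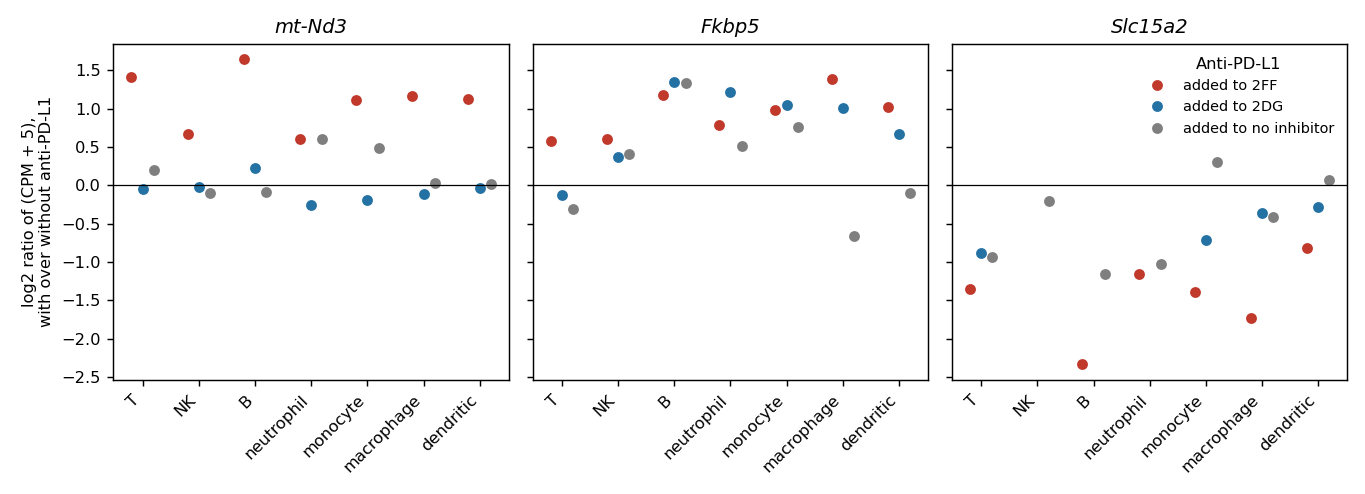
Log2 ratio of CPM + 5, with anti-PD-L1 over without, for mt-Nd3, Fkbp5 and Slc15a2 in each of the 7 classes, where anti-PD-L1 was added to 2FF (red), to 2DG (blue) or to no inhibitor (grey). Points are missing where a gene had under 50 UMIs. mt-Nd3 lies between 0.60 and 1.64 in the 2FF pair and between -0.26 and 0.22 in the 2DG pair, and Fkbp5 in macrophages at 1.38 and 1.01.

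The series holds the same addition of anti-PD-L1 to 2DG (an inhibitor of glycolysis and N-glycosylation) and to no inhibitor, in other mice, so that the 3 pairs share no library. mt-Nd3 in T cells had log2 ratios of -0.05 and 0.20 in these pairs against 1.41 in the 2FF pair. Alox15 and Prg4 in macrophages were higher in the other pairs as well, with log2 ratios of 2.33 and 2.29 in the 2DG pair. Without inhibitor these were 1.39 and 0.97. The median of the cytotoxic effectors in T cells was 0.51 in the 2DG pair and 0.78 in the pair without inhibitor, where that of the 2FF pair was -0.35. Among CD8 T cells alone it was 0.37 in the pair without inhibitor, whose control library held 111 such cells. The CD8 share of T cells differed by -9.05 points in the 2FF pair, 14.1 in the 2DG pair and 33.6 without inhibitor. Its part in these medians was not tested. Of this list, Nkg7 in T cells was highest in the 2FF library, at 2236 CPM, with 1379 in the combination. In the libraries of the other pairs it ran from 910 (control) to 1870 (2DG plus anti-PD-L1). Klrg1, also of this list, was instead lowest in 2FF. The median of the interferon-stimulated genes in monocytes was above 0 in all 3 pairs, at 0.43, 0.60 and 0.99, whereas that of the granule genes in neutrophils was 0.79, -0.98 and 1.23. The chemokine median in monocytes was 0.55 in the 2FF pair, 1.06 in the 2DG pair and -1.19 without inhibitor. Il6 and Inhba there had log2 ratios of 1.51 and 1.53, 0.99 and 1.14, and -1.84 and -1.64 in the same order. In neutrophils, the medians of the interferon-gamma, MHC class I and MHC class II lists were -0.44, -0.47 and -1.02 in the 2FF pair. They were 0.39, 0.15 and 0.47 in the 2DG pair and 1.26, 1.02 and 0.91 without inhibitor. Differences between pairs were not tested, as each rests on 1 mouse per group.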

How the data were processed

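Cells were captured with the 10x 3' v3.1 kit. What the authors deposited is a matrix of UMI counts for each library, raw and over 32285 genes. The file headers and the study name Cell Ranger 7.0.0 and the submitters' processing notes 3.1.0, both with mm10. The study's limits on genes and mitochondrial content were applied here. 0 columns were without a sample.

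A cell took the class with the most of its 8 markers detected, if at least 3 were and no other class had as many. Dendritic cells had 4 lists. Cells with 4 or more markers of another lineage were left out, and no doublet caller was run. For each class of a library the counts were added up, and log2 ratios of CPM + 5 were taken over genes with at least 50 UMIs. CPM have exact Poisson, shares exact Clopper-Pearson 95% intervals. With 1 library per group no test was made. Scripts were tested on simulated data.

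Named genes are the 5 highest and 5 lowest log2 ratios per class among genes past 1.5-fold, leaving out mitochondrial, ribosomal protein, immunoglobulin, T cell receptor, haemoglobin, sex-linked marker and unnamed genes, genes under 20% of their CPM in another class, in under 20 cells, or with over 20% of UMIs in 1 cell, plus the 4 largest ratios in size of each list described, Cd274 and Pdcd1. Those described across classes or in other classes were chosen after their values were seen. The cells, markers and 21 lists were chosen with earlier results of these data known. Python 3.11.15, numpy 2.4.6, scipy 1.17.1 and pandas 2.3.3 were used. Alternatives changed markers, filters, pseudocount, UMI minimum, weighting and centring. Some genes past the threshold are not reported here.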

Additional observations from a re-analysis of the deposited data

Results flagged for a closer look

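Some shares differed in opposite directions between libraries with and without anti-PD-L1, depending on what it was added to. Both differences were beyond counting error, but each pair is 1 mouse against 1 mouse and the difference between pairs was not tested. The T cell share differed by -9.42 percentage points in the 2FF pair and by 30.5 points in the pair without inhibitor, with -7.16 points in the 2DG pair. The monocyte share differed by 11.5 and -1.97 points and the dendritic share by -0.84 and 2.13 points in the same pairs. In the 2DG pair they differed by 7.34 and -3.13 points, so that these 3 classes differed in the same direction in the 2FF and 2DG pairs. Neutrophils made up 42.1% of the 7 classes in the control library and 4.08% in the anti-PD-L1 library. A larger share of 1 class lowers the shares of the others, and its part in these differences was not tested.

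Within T cells, the CD8 share differed by -9.05 points in the 2FF pair, 14.1 points in the 2DG pair and 33.6 points in the pair without inhibitor. The conventional CD4 share differed by 2.93, -6.16 and -17.1 points, and the Treg share by 6.48, -6.18 and -9.92 points. The Treg share of T cells was thus higher with the antibody in the 2FF pair alone of these 3 pairs, a difference that was not tested.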

How the results depend on the processing

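No paired analysis was possible because each group has 1 sample. Of the values that answer a comparison, 278 kept within the spread allowed and 45 moved, and of those of single genes 450 and 12. None turned its direction past the threshold, but some share differences whose intervals held 0 changed sign. Leaving out cells with 3 or more markers of another class, chosen after seeing the data, gave a T cell difference of -11.2 points and a macrophage difference of 0.887 points. With all cells kept the macrophage difference was -0.731 points. Thinning gave -2.72 points for macrophages, 3.25 for Treg cells and 5.35 for T cells of no subset. Without thinning the last of these was -0.364 points.

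With CPM + 1 the genes higher and lower were 211 and 274 in T cells, 358 and 413 in monocytes, 304 and 242 in macrophages and 363 and 504 in dendritic cells. With at least 20 UMIs they were 389 and 706 in NK cells, 293 and 656 in B cells, and 1207 lower in neutrophils. With at least 200 UMIs they were 57 and 64 in NK cells, 41 and 74 in B cells, 178 and 226 in neutrophils and 132 and 84 in dendritic cells. Centring gave 580 and 432 in neutrophils and 68 lower in monocytes. Without the cells of mixed markers there were 107 higher in T cells, 194 lower in monocytes, and 244 higher and 148 lower in macrophages.

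Without the cells of mixed markers, the lists gave 2 interferon-stimulated genes and 3 chemokines higher in macrophages, 14 interferon-stimulated genes higher in dendritic cells, and 5 granule, 4 interferon-gamma and 0 cell cycle genes called in neutrophils. In NK cells 2 cell cycle genes and 1 glycolysis gene were then lower. Shares over all genes in that setting are not given beside these counts. With each cell weighing the same, 1 cytokine gene was higher in macrophages, 6 granule and 0 cell cycle genes in neutrophils, and 1 glycolysis gene was lower in NK cells. The cause was not tested. Depth limits NK cells, B cells and neutrophils most, where a gene near 50 UMIs can pass 1.5-fold by counting error.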

Other observations

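Outside the comparisons above, in dendritic cells 3 of 17 hypoxia and glycolysis genes were higher, where 2.59% of all genes were, Egln3 (10.6 and 26.1 CPM), the vascular growth factor Vegfa (21.6 and 45) and the mitophagy receptor Bnip3 (22.8 and 43.2), with a median over the list of 0.03.

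Selectins and the carriers of their fucosylated ligands were looked at because 2FF acts on these glycans. Both mice received 2FF, so the comparison does not show an effect of 2FF. In macrophages 3 of 8 were higher, where 1.37% of all genes were, among them Selp (2.78 and 13.4 CPM) and Cd44, and 10 cells held 51.4% of the Selp UMIs of the combination. In dendritic cells 2 of 8 were higher, where 2.59% of all genes were. Of 10 heat shock genes tested in neutrophils 5 were higher, where 6.17% of all genes were, with Hsp90aa1 at 462 and 920 CPM. In B cells 3 of 10 were lower, where 5.55% of all genes were, and in NK cells 2 of 10, where 5.95% were.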
